A study of Mus musculus with 5 samples.

Results

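Chromosomes 10 and 15 served as a background in trans for the contacts of the β-major promoter, which lies on mouse chromosome 7. All probes listed for the 2 chromosomes were taken, 60933 for chromosome 10 and 48584 for chromosome 15, which made 109517 of the 385000 probes on each array. They were taken by chromosome, whatever their signal. In 4C, cross-linked chromatin is digested and ligated, and inverse PCR from a chosen viewpoint amplifies whatever became joined to it. The product is read out on an array, here with probes that lie next to HindIII sites. Signals of 5 samples of cultured mouse fetal liver cells at embryonic day 14.5 were used, and the viewpoint was the β-major promoter in all of them. The untreated samples A and B were cultured without inhibitor, and the α-amanitin samples A and B were treated for 5 h. A single sample received DRB at 100 µM for 3 h. For α-amanitin the labels state 100 mg/ml and the paper 100 µg/ml. Strain, number of livers and pooling were not given in the sources used here. Both A samples carried Cy3, and both B samples and the DRB sample carried Cy5, so that letter and dye cannot be told apart. The 5 samples came from 5 slides.

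Interphase chromosomes mostly keep to territories of their own, so a locus meets sequences on its own chromosome (in cis) far more often than sequences on other chromosomes (in trans). Contacts that recur in many cells light up runs of neighbouring probes, because ligation samples the whole region around a contact. α-Amanitin blocks initiation and elongation by RNA polymerase II, and DRB blocks the kinases that release the polymerase into elongation. A chromosome in trans without frequent contacts therefore shows what the assay returns away from the viewpoint. Chromosome 7 was the contrast in cis and chromosomes 8, 11, 12 and 14 were the other chromosomes in trans.

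The signal of most probes on chromosomes 10 and 15 was low. The median intensity, in arbitrary units of the scanner, was 464 and 404 in untreated A and B, 666 and 457 in α-amanitin A and B, and 451 in DRB. Values below follow this sample order where samples are not named. α-Amanitin A stood apart by its high floor, with the lower quartile at 541 against 299 to 377 in the other samples. The 99th percentile was 12163 and 13826 without inhibitor, 9861 and 11470 after α-amanitin, and 22038 in DRB. DRB thus had a typical median and the highest upper tail. The width of the middle of the distribution, as the ratio of the upper to the lower quartile, was 2.04 and 2.18 in the untreated samples, 1.60 and 1.53 after α-amanitin and 2.55 in DRB. The 3 conditions did not overlap in this ratio, and the same held over the whole array, at 2.09, 2.25, 1.62, 1.56 and 2.64. It was thus not particular to chromosomes 10 and 15. DRB was a single sample, and the spread of the untreated and α-amanitin groups rests on 2 samples each. The mean was far above the median in every sample, from 872 to 1376, since a small number of probes held much of the signal.

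An array carries no read depth, and the number of arrays limits the precision. A set of 210 probes for the human β-globin locus served as a control from another species. How far these probes match mouse sequence was not tested. The median intensity of the human set was 368, 318, 460, 356 and 300, below the median of chromosomes 10 and 15 in each sample. Above 5000 there were 1, 2, 0, 0 and 3 human probes. The mouse and human sets differ in probe sequence, whose part in this difference was not tested.

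**Figure D1:**
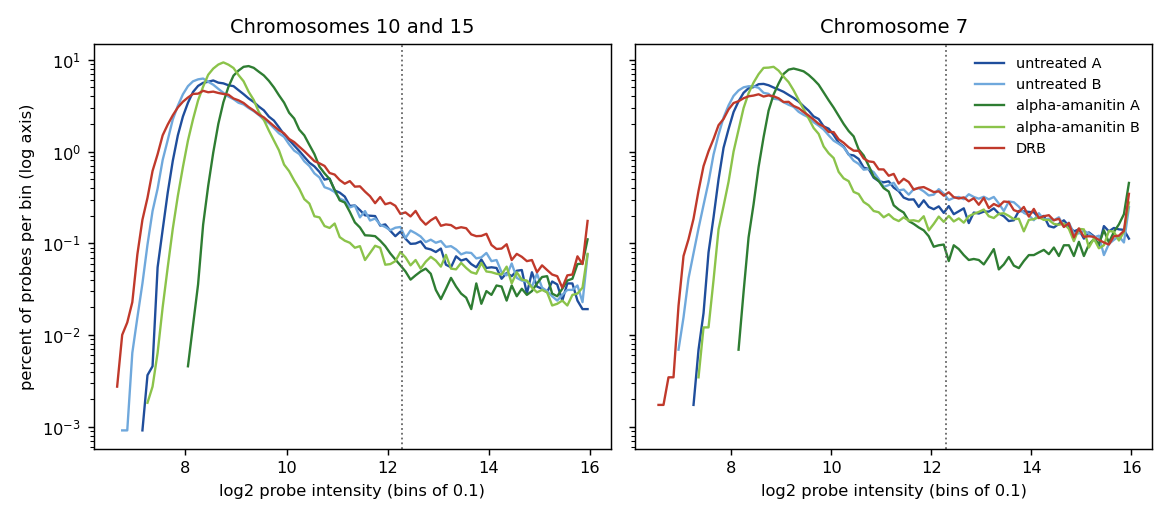
Percent of probes per bin of log2 probe intensity (log axis) on chromosomes 10 and 15 (left) and chromosome 7 (right), with 1 line per sample and a dotted line at 5000. α-Amanitin A begins at the highest intensity, and DRB lies above the other samples between 5000 and the upper end on chromosomes 10 and 15, where it has 4.18% of probes above 5000 against 1.41% to 2.48%.

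Probes with an intensity above 5000 were called bright. On chromosomes 10 and 15, 2278 probes (2.08%) were bright in untreated A, where the whole array had 2.8%. In untreated B 2721 probes (2.48%) were bright, beside 3.36% of the whole array. α-Amanitin A had 1542 bright probes (1.41%, whole array 1.8%) and α-amanitin B had 1910 (1.74%, whole array 2.5%). DRB had 4577 (4.18%, whole array 4.85%). The order of the samples was the same on chromosome 10 (2.10%, 2.49%, 1.44%, 1.80% and 4.24%) and on chromosome 15 (2.06%, 2.48%, 1.37%, 1.67% and 4.10%). Bright probes held 37.2%, 43.4%, 32.9%, 40.0% and 54.3% of all signal summed over the 2 chromosomes,.

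Fewer probes were bright on chromosomes 10 and 15 than on chromosome 7 in all 5 samples. The share on chromosome 7 was 6.62% and 7.89% in the untreated samples, 3.60% and 6.23% in the α-amanitin samples and 7.89% in DRB. The difference was −4.07 percentage points ± 1.21 (SD, n = 5), with p = 0.0625 in a two-sided exact sign-flip permutation test over samples. No smaller p is possible with 5 samples, and adjustment over the 6 comparisons of this kind left it at 0.0625. Chromosome 7 had 3.18 times the share of chromosomes 10 and 15 in either untreated sample, 2.56 and 3.57 times after α-amanitin, and 1.89 times in DRB, the lowest ratio of the 5. With the 55830 probes of chromosome 7 away from the viewpoint, these ratios were 2.75, 2.74, 2.18, 3.07 and 1.71.

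Within the chromosomes in trans the differences were small. Against chromosomes 8, 11, 12 and 14 pooled, the bright share of chromosomes 10 and 15 was lower in 5 of 5 samples. The difference ranged from 0.0144 points in untreated A to 0.163 points in DRB (mean −0.0791 ± 0.0558, SD, n = 5, exact permutation p = 0.0625). With the threshold at 10000 this difference was −0.0144 points, lower in 4 of 5 samples (exact permutation p = 0.5). Chromosome 15 was below chromosome 10 in 5 of 5 samples, by −0.0773 points ± 0.0554 (SD, n = 5; exact permutation p = 0.0625). As a ratio, chromosomes 10 and 15 had between 0.945 and 0.993 of the share of the other chromosomes in trans pooled. Taken singly, chromosomes 8 and 11 were above chromosomes 10 and 15 in every sample. Chromosomes 12 and 14 were below chromosomes 10 and 15 pooled in every sample except α-amanitin B. Against chromosome 15 alone, chromosome 14 was also higher in DRB (4.17% against 4.10%). Chromosome 12 was level with chromosome 15 in α-amanitin A, at 1.37%. Chromosome 12 had 2.04%, 2.42%, 1.37%, 1.77% and 4.05%, and chromosome 14 had 1.98%, 2.39%, 1.37%, 1.87% and 4.17%.

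**Figure D2:**
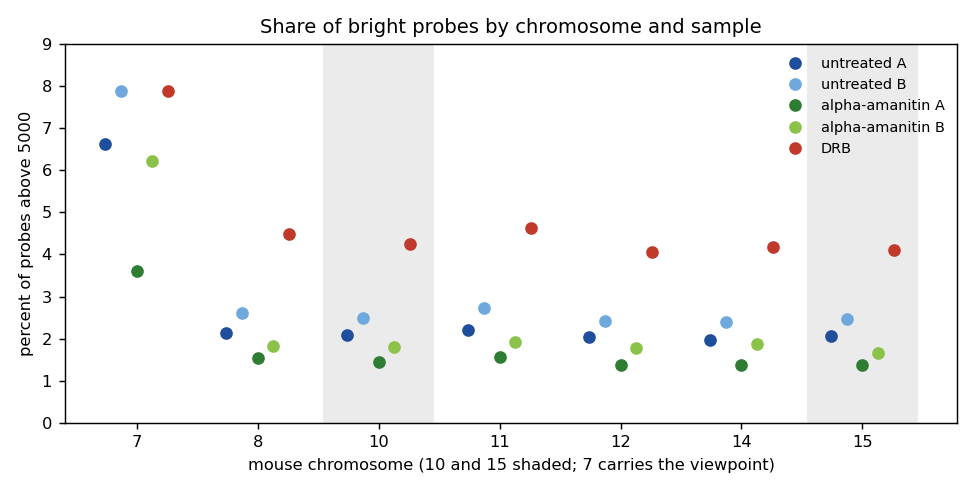
Percent of probes above 5000 on each chromosome, with 1 point per sample and chromosomes 10 and 15 shaded. In each sample the chromosomes in trans lie close together and chromosome 7 lies higher, and DRB is the highest sample on every chromosome in trans.

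Both α-amanitin samples had fewer bright probes on chromosomes 10 and 15 than both untreated samples, with a mean of 1.58% ± 0.238 (SD, n = 2) against 2.28% ± 0.286 (SD, n = 2). The groups did not overlap, and the order held within either dye, with 1.41% against 2.08% in Cy3 and 1.74% against 2.48% in Cy5. The exact permutation test of 2 against 2 samples gave p = 0.333, the smallest value it allows. This order depended on the scale of each array. After quantile normalization over all probes the shares became 2.28% and 2.21% in the untreated samples, 2.50% and 2.20% in the α-amanitin samples and 2.58% in DRB, so that the mean was 2.35% after α-amanitin and 2.24% without it. DRB, above all other samples in both versions, had no replicate.

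Many of the bright probes recurred between samples. Of the 2278 bright probes of untreated A and the 2721 of untreated B, 1126 were the same, 49.4% of the first list and 41.4% of the second. The 2 shares multiplied give 56.6 probes. The α-amanitin duplicates shared 627 probes, 40.7% of the A list and 32.8% of the B list. Among the 1126 probes bright in both untreated samples, 1011 (89.8%, and 22.1% of the DRB list) were also bright in DRB. 418 of them were bright in both α-amanitin samples, 37.1% of the untreated list and 66.7% of the α-amanitin list, and 373 (33.1%) were bright in neither. These shares were close to those on chromosomes 8, 11, 12 and 14, where the untreated duplicates shared 48.5% and 39.9% of their lists, 89.0% of the shared probes were bright in DRB, 37.7% in both α-amanitin samples and 29.8% in neither. On chromosome 7 away from the viewpoint, of the probes bright in both untreated samples 71.2% were bright in DRB, 24.5% in both α-amanitin samples and 26.4% in neither. Over all 10 pairs of samples the shared number was between 11.7 times (α-amanitin B with DRB) and 24.3 times (untreated A with α-amanitin B) the product of the shares. The samples share the probes' own base composition and any cross-hybridization, whose part was not tested.

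Of the 7437 probes that were bright in any sample, 4682 (63.0%) were bright in 1 sample, 1168 in 2, 755 in 3, 415 in 4 and 417 in all 5. The 417 probes made up 0.381% of chromosomes 10 and 15, where 0.483% of the whole array was bright in all 5 samples, and 0.381% of chromosomes 8, 11, 12 and 14. Chromosome 10 held 249 of them and chromosome 15 held 168. The rule put each of them above 5000 in every sample, and their lowest values were 5005, 5062, 5329, 5002 and 9755. Their median was 32862, 33512, 35164, 23758 and 57946. They did not lie in runs. Only 1 of them was followed in probe order by another, and they fell into 401 of the 3776 non-overlapping windows of 29 probes. Probes bright in a single sample were unevenly spread over samples: 2331 (50.9% of its bright probes) belonged to DRB, 995 (36.6%) to untreated B, 628 (32.9%) to α-amanitin B, 388 (17.0%) to untreated A and 340 (22.0%) to α-amanitin A.

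Neighbouring probes were next examined, since contacts spread over adjacent fragments. All probes were listed at position 0, and the order along a chromosome was therefore taken from the last digits of the probe identifiers. The log2 intensities of probes next to each other in this order had a Pearson correlation of 0.0789, 0.0941, 0.110, 0.0940 and 0.0883 on chromosome 10, in the sample order. On chromosome 15 it was 0.0901, 0.101, 0.126, 0.101 and 0.101. All values were low and above 0, and α-amanitin A was highest on both chromosomes. These correlations run over 60932 and 48583 pairs of probes of 1 array each, which share its scan and are not independent. Averaged over samples, the correlation was 0.0931 ± 0.0114 (SD, n = 5) on chromosome 10, 0.104 ± 0.0131 on chromosome 15 and 0.229 ± 0.0415 on chromosome 7.

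The correlation fell sharply beyond the nearest probe on chromosomes 10 and 15 and more slowly on chromosome 7. At 2 probes it was 0.0341 ± 0.00496 on chromosome 10 and 0.0387 ± 0.00535 on chromosome 15 (SD, n = 5), against 0.167 ± 0.0430 on chromosome 7. At 100 probes the 3 means were 0.0181, 0.0219 and 0.0851. The value at 1 probe varied with the spacing of the running numbers. Pairs with consecutive numbers correlated at 0.101 on chromosome 10 and 0.114 on chromosome 15, and pairs 2 to 4 numbers apart at 0.0464 and 0.0360. Probes that lay beside each other on the slide correlated at 0.0207 and 0.0191, close to the level at 100 probes.

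The mean correlation of chromosomes 10 and 15 at 1 probe was below that of chromosome 7 in 5 of 5 samples, by −0.130 ± 0.0462 (SD, n = 5; two-sided exact permutation p = 0.0625). It was below the mean of chromosomes 8, 11, 12 and 14 in 5 of 5 samples as well. This difference was only −0.00725 ± 0.00253 (exact permutation p = 0.0625, n = 5). Chromosome 8 was the highest of these, at 0.120, and chromosomes 12 and 14 had 0.103 and 0.109. Chromosome 11, at 0.0916, was lower than chromosome 10. On the deposited scale in place of log2, the difference from the other chromosomes in trans turned to 0.00317. Chromosome 15 was above chromosome 10 in 5 of 5 samples, by 0.0108 ± 0.00371 (exact permutation p = 0.0625, n = 5), and in 4 of 5 samples on the deposited scale, by 0.00384 (exact permutation p = 0.5). The difference from chromosome 7 depended on the bright probes. With Spearman in place of Pearson it was −0.0357, lower in 4 of 5 samples (exact permutation p = 0.125), and without probes above 5000 it was −0.00554, lower in 3 of 5 samples (exact permutation p = 0.4375).

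**Figure D3:**
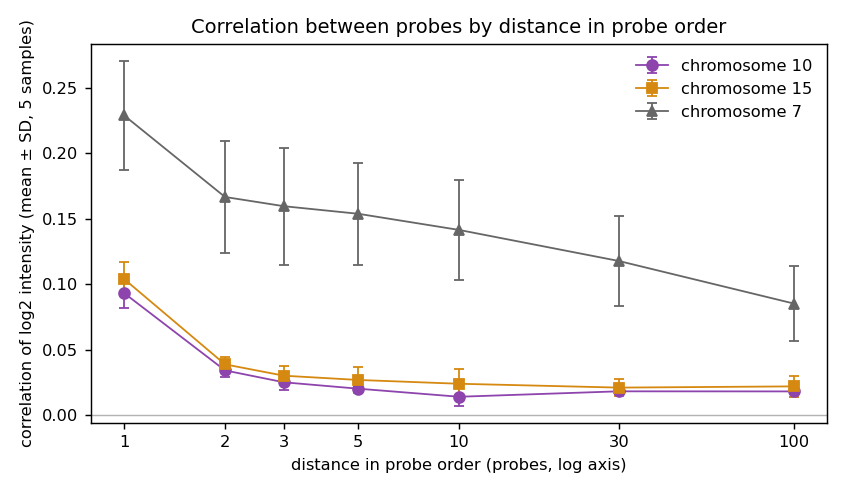
Correlation of log2 intensity between probes at a given distance in probe order (log axis) on chromosomes 10, 15 and 7, as the mean ± SD over 5 samples. On chromosomes 10 and 15 it falls from 0.0931 and 0.104 at 1 probe to 0.0341 and 0.0387 at 2 probes, and chromosome 7 stays higher at every distance shown.

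Bright probes on chromosomes 10 and 15 were mostly alone. The probe after a bright probe was bright in 8.43% and 8.97% of cases in the untreated samples, 9.92% and 10.1% in the α-amanitin samples and 9.96% in DRB. This share was nearly level over the samples although the share of bright probes varied between 1.41% and 4.18%. On chromosome 7 away from the viewpoint it was 22.1%, 23.1%, 14.04%, 21.5% and 16.1%. Relative to each sample's own share of bright probes the order was the other way. A bright probe was followed by another 4.05, 3.61, 7.05, 5.76 and 2.38 times as often as that share on chromosomes 10 and 15, against 3.86, 3.40, 4.59, 4.01 and 2.25 times on chromosome 7 away from the viewpoint, higher on chromosomes 10 and 15 in 5 of 5 samples. Runs of a single bright probe made up 90.4% to 92.5% of all runs on chromosomes 10 and 15, and the longest run held 5 probes, in DRB. On chromosome 7 away from the viewpoint the longest run held 17, 20, 5, 12 and 13 probes.

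Running means of 29 probes, which cover about 60 kb on average according to the sample labels, were computed on the deposited intensities. On chromosome 10 the highest running mean was 7791 and 6778 without inhibitor, 10761 and 7743 after α-amanitin and 10449 in DRB, between 9.45 and 13.3 times the median of all running means of that sample. On chromosome 15 the highest values were 6148, 7808, 8640, 5870 and 7966. Running medians, which ignore a few extreme probes, gave a flat profile. Their highest value was 1.54 to 3.06 times the typical running median on chromosome 10 and 1.51 to 3.27 times on chromosome 15. On chromosome 7 away from the viewpoint the highest running median was 17.4 to 41.6 times the typical one.

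The untreated windows with the highest running means on each chromosome held few bright probes. The first on chromosome 10, centred at 89.3% of the probe order, had means of 7791 and 6778 in untreated A and B and 9578 in DRB, but 3658 and 2155 in the α-amanitin samples. It held 8 and 6 bright probes of 29 without inhibitor, 8 in DRB and 2 in each α-amanitin sample. Its running median was 649 in untreated A and 538 in untreated B. The second, at 48.9%, was high in every sample (6111, 3956, 5689, 6810 and 8936) with 3 to 5 bright probes. The third, at 48.8%, had means between 4274 and 5345 with 2 or 3 bright probes, and a single probe held 42.3% to 50.0% of its signal.

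On chromosome 15 the first window, at 6.14% of the probe order, had means of 6148 and 7808 in untreated A and B, 2822 and 3008 in the α-amanitin samples and 7701 in DRB. It had 5 bright probes in either untreated sample, 6 in DRB and 1 in each α-amanitin sample, and that 1 probe held 75.7% and 75.1% of the signal. The windows at 86.9% and 34.6% were high in all 5 samples, at 3873 to 6221 and at 4892 to 5523. The running median of the last of these was 597 in untreated A and 465 in untreated B. The untreated values chose these windows and are given as a description.

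The lowest untreated windows lay at 73.3% of the probe order on chromosome 10 and 25.8% on chromosome 15. They held no bright probe in any sample. Their running means over the 5 samples were 356, 331, 570, 415 and 450 on chromosome 10 and 318, 329, 542, 421 and 310 on chromosome 15. At most 2.39% of the windows of the same chromosome were lower in any sample, a share reached on chromosome 10 in DRB.

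**Figure D4:**
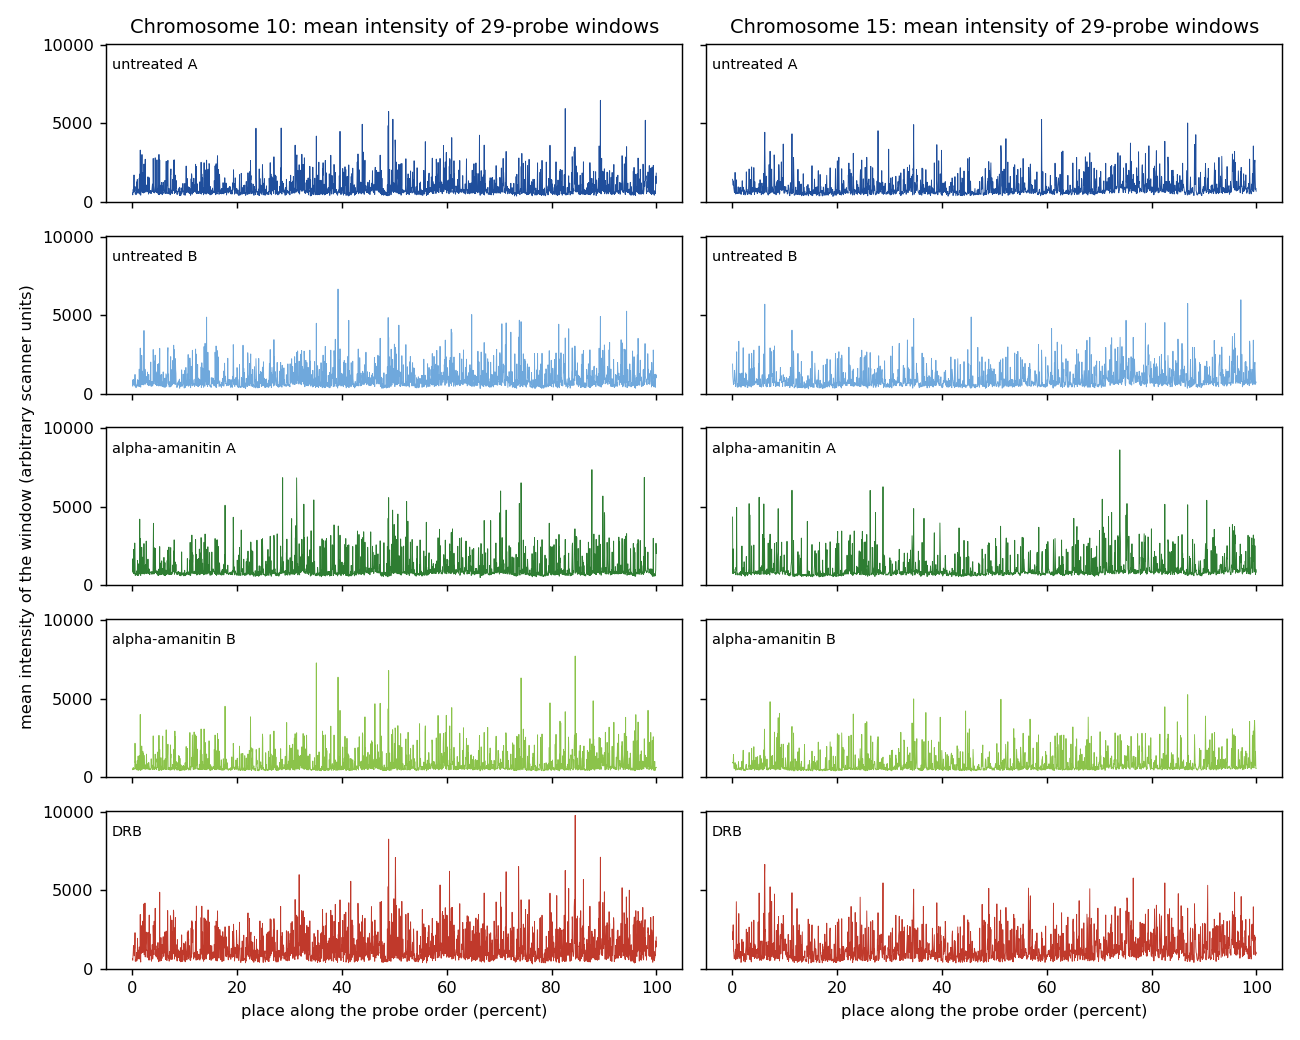
Mean deposited intensity of consecutive, non-overlapping windows of 29 probes along the probe order of chromosomes 10 (left) and 15 (right), with 1 row per sample. Isolated windows stand above a level floor in all 5 samples, and the median of the running means on chromosome 10 is 1051 in DRB against 581 to 824 in the other samples.

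The floor itself varied along either chromosome in the same way in every sample. When the probe order was cut into 10 equal parts, the seventh part of chromosome 10 had the highest median intensity and the third part the lowest in 5 of 5 samples. These medians were 107% ± 2.62 and 94.0% ± 2.17 (SD, n = 5) of the mean of the medians of the 10 parts. On chromosome 15 the eighth part was highest, at 116% ± 6.46, and the second part lowest, at 85.5% ± 5.03, again in 5 of 5 samples. The amplitude differed between samples on chromosome 15, with medians from 398 to 534 and from 339 to 491 in the untreated samples, 587 to 748 and 423 to 494 in the α-amanitin samples and 361 to 567 in DRB. Bright probes followed this less strictly. Their share on chromosome 15 was highest in the eighth part in untreated A and both α-amanitin samples and in the last part in untreated B and DRB. Windows of 29 probes with more running numbers left unused had a lower median intensity, with a rank correlation between −0.127 and −0.269 over 2101 windows of chromosome 10 and 1675 windows of chromosome 15 in the 5 samples. For the share of bright probes the same correlation was between −0.0729 and 0.0112. The unused numbers stand for probes that are not on the array, and what set them apart was not tested.

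The rule the study applied in trans calls a window when its running median exceeds every running median of the shuffled chromosome in both duplicates. With 100 shuffles no window of chromosomes 10 and 15 passed in both untreated samples, 0 of 60905 and 0 of 48556. Of all windows of the 6 chromosomes in trans 0.107% passed, and 214 of these 351 windows lay on chromosome 8. The count on chromosomes 10 and 15 depended on the number of shuffles, since 26 windows there passed in both untreated samples with 1 shuffle. With 100 shuffles none passed in both α-amanitin samples. Single samples had a few. On chromosome 10 there were 3 windows above the threshold in untreated A, 1 at 28.3% and 2 at 97.9% of the probe order, and 4 in α-amanitin A, all at 63.0%. Chromosome 15 had 10 and 8 in untreated A and B and 8 in α-amanitin A. On both chromosomes the number was 0 in DRB and α-amanitin B.

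These windows lay just above their thresholds. The highest running median of chromosome 10 in untreated A was 1135 against a threshold of 1087, at 28.3% of the probe order, and the same stretch reached 0.891 of the threshold in untreated B and 0.941 in DRB. On chromosome 15 the stretch at 95.3% of the probe order passed in untreated A (1071, 1.06 times the threshold) and in α-amanitin A (1165, 1.06 times), with 0.654 of the threshold in untreated B, 0.961 in α-amanitin B and 0.607 in DRB. The stretch at 78.6% passed in untreated B and in α-amanitin A, at 1.01 and 1.04 times the threshold. For both stretches the passing samples came from different conditions. The stretch at 98.7% passed in untreated B alone, at 1.10 times the threshold.

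Agreement between samples was measured, as in cis, by the Spearman correlation of running means after quantile normalization. The untreated duplicates had 0.609 on chromosomes 10 and 15 over 109461 overlapping windows, and the α-amanitin duplicates had 0.590. Untreated with α-amanitin samples gave 0.593 ± 0.0527 (SD over 4 pairs, which share samples), from 0.519 for the 2 B samples to 0.640 for untreated A with α-amanitin B. DRB reached 0.675 with untreated A and 0.580 with untreated B, and 0.620 and 0.605 with α-amanitin A and B. Duplicates thus lay inside the range of pairs from different conditions, and the mean of all 10 pairs was 0.605 ± 0.0406 (SD). Pairs read in the same dye averaged 0.581 and pairs in different dyes 0.622. Over the same 10 pairs, chromosome 10 averaged 0.616 ± 0.0436 and chromosome 15 averaged 0.592 ± 0.0388. Untreated B with α-amanitin A was the only pair with the higher value on chromosome 15, at 0.599 against 0.594. By running medians chromosome 15 had the higher mean, at 0.735 against 0.709 on chromosome 10.

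Over all windows, the level of agreement in trans was close to that in cis. On chromosome 7 away from the viewpoint the mean of the 10 pairs was 0.633 ± 0.0595 (SD). The difference between chromosome 7 and chromosomes 10 and 15 was 0.0282 ± 0.0575 over the pairs, higher on chromosome 7 in 7 of them and lower in 3. It was smaller than its spread. For running medians the order of the means was turned, with 0.721 in trans and 0.710 on chromosome 7, and single probes gave 0.665 and 0.642. All windows of 1 array share probes with those of another, so this agreement includes whatever the probes contribute themselves. The windows in the top 5% by the untreated mean were looked up in the samples that had not chosen them. Of 189 such windows on chromosomes 10 and 15, 71 (37.6%) were in the top 5% of α-amanitin A, 95 (50.3%) of α-amanitin B and 92 (48.7%) of DRB. On chromosome 7 away from the viewpoint the shares of 96 such windows were higher, at 39.6%, 70.8% and 56.25%. By running medians chromosome 7 was higher for α-amanitin B and DRB. For α-amanitin A it was lower, at 33.3% against 45.0%.

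**Figure D5:**
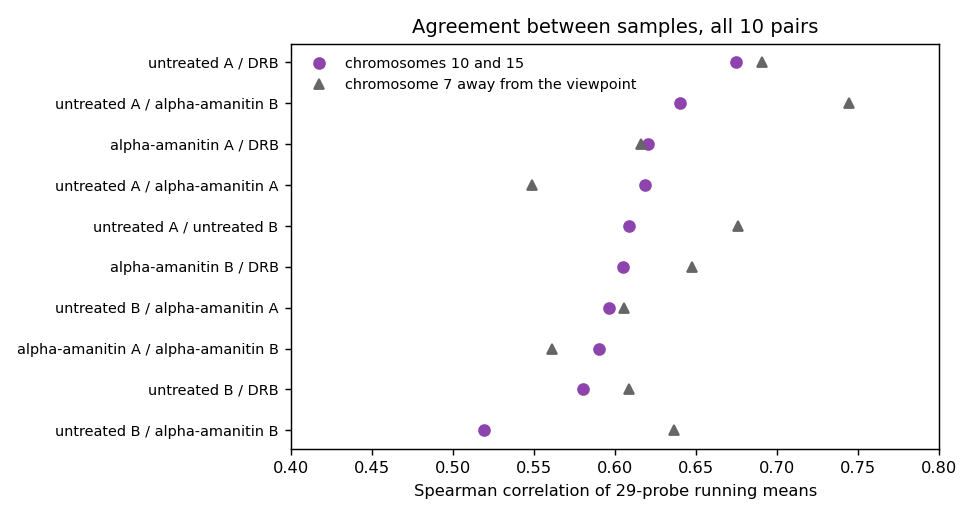
Spearman correlation of 29-probe running means for each of the 10 pairs of samples on chromosomes 10 and 15 (circles) and on chromosome 7 away from the viewpoint (triangles). Circles lie between 0.519 and 0.675, and the triangle is to the right of the circle in 7 of 10 pairs.

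Finally, single windows were compared between conditions with limma over 13261 non-overlapping windows of all 7 chromosomes, 3776 of them on chromosomes 10 and 15. The adjusted p (limma, Benjamini-Hochberg) fell below the threshold of 0.05 in 0 windows of chromosomes 10 and 15 for α-amanitin against untreated, where 0% of all windows did, and the smallest adjusted p was 0.879. At an unadjusted p under 0.05 there were 128 windows (3.39%, against 3.58% of all windows), 66 higher and 62 lower after α-amanitin. For DRB the count of adjusted calls was also 0, beside 0% of all windows, with a smallest adjusted p of 0.381. At an unadjusted p under 0.05 there were 217 windows (5.75%, against 6.1% of all windows), 199 higher and 18 lower in DRB. This excess of higher windows was absent with window medians in place of means, where 61 were higher and 70 lower, and was smaller without untreated A, at 143 higher and 126 lower. The shares on chromosomes 10 and 15 were near those of all windows in both comparisons. At the same unadjusted p, higher windows in DRB also outnumbered lower ones over all windows and on each of chromosomes 8, 11, 12 and 14. On chromosome 7 lower windows outnumbered higher ones. The comparisons share the untreated samples, and the lone DRB sample is assumed to vary like the duplicates.

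The median log2 difference over the windows of chromosomes 10 and 15 was 0.011 for α-amanitin and 0.024 for DRB, against 0.0086 and 0.011 over all windows. This near balance was a property of quantile normalization. With each array scaled by its median instead, the medians moved to −0.28 and 0.33, and the windows at an unadjusted p under 0.05 became 27 higher and 397 lower for α-amanitin and 615 higher and 21 lower for DRB, again with 0 adjusted calls in either comparison.

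Among the windows with the smallest p, the first for α-amanitin lay at 8.74% of the probe order of chromosome 15. Its mean normalized intensity was 658 and 559 in the untreated samples, 4475 and 4075 after α-amanitin and 573 in DRB, a log2 difference of 2.82 with a standard error of 0.38 (limma, adjusted p = 0.879). The α-amanitin samples were high and the other 3 were at the floor. The second, at 36.6% of chromosome 15, had 555 and 553 without inhibitor, 3692 and 2663 after α-amanitin and 578 in DRB. The third lay at 25.3% of chromosome 10 and went the other way, with 867 and 978 in the untreated samples, 473 and 431 after α-amanitin and 469 in DRB.

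For DRB, the first window was at 45.5% of chromosome 15, with 457 and 417 in the untreated samples, 429 and 451 after α-amanitin and 1003 in DRB. The log2 difference was 1.20 with a standard error of 0.12 (limma, adjusted p = 0.381). A window at 25.3% of chromosome 10 had 464, 470, 491, 486 and 947, and a window at 43.1% of chromosome 15 had 506, 502, 454, 547 and 1922. In all 3 windows DRB alone was raised, in 1 sample without a replicate.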

How the data were processed

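The authors deposited uncorrected probe signal intensity, read with NimbleScan version 2.3.19 per the file headers, for 1 dye of each of 5 samples, on arrays of 60-mer probes. The arrays also carried a further sample each, labelled with the alternate dye and not used here. The study calls its duplicates independent experiments, but does not name separate livers or cultures, so p-values measure only the spread between these samples, which may be technical. Members, windows and comparisons were chosen with earlier results of these data known.

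Probes of chromosomes 10 and 15 were ordered by running number, since the position was 0 throughout, and no coordinate, gene or probe sequence is given. A stretch of equal length on either side of the highest running mean was left out of chromosome 7 where stated. Bright means above 5000, as deposited. Samples were compared by exact permutation tests, and windows by limma 3.58.1 in R 4.3.3 (lmFit and eBayes with trend, all 5 samples, adjustment over all windows) on log2 means of quantile normalized intensity. Windows named are the 3 highest and the lowest per chromosome by the untreated running mean and the 3 smallest p per comparison. Trans thresholds used 100 seeded shuffles. Python 3.11.15, numpy 2.4.6, scipy 1.17.1, pandas 2.3.3 and matplotlib 3.10.9 were used, and the scripts were tested on simulated data.

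Alternatives varied the threshold, normalization, background correction, window, averaging, distance, shuffles, pairing and samples left out. A slide could not be used as a block, since each sample came from its own slide. The letter was not used as a block, since the study analysed each array separately and its methods name no block. Same-letter samples tended to deviate in opposite directions (correlation −0.202 over 3776 windows).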

Additional observations from a re-analysis of the deposited data

How the results depend on the processing

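Of 118 alternatives over 14 results, 2 turned the direction of the mean and 15 were classed as moving a value. The moved values were all agreements between samples or the count of windows above the trans threshold. Either set of duplicates is 1 pair and the trans count is a single number, so these have no spread of their own. In some other alternatives the direction was no longer shared by 5 of 5 samples. With the threshold at 10000, the bright share was lower in 4 of 5 samples against chromosomes 8, 11, 12 and 14 (−0.0144 points) and for chromosome 15 against 10 (−0.0579 points). The neighbour correlation against chromosome 7 was lower in 4 of 5 with Spearman (−0.0357) and in 3 of 5 without bright probes (−0.00554), and that of chromosome 15 was above chromosome 10 in 4 of 5 samples on the deposited scale (0.00384) and without bright probes (0.00734). The counts of adjusted calls stayed at 0 in all 14 alternatives for α-amanitin and all 12 for DRB, with smallest adjusted p values (limma) of 0.0557 and 0.0982. The share of bright probes after α-amanitin turned from −0.706 to 0.105 points against untreated with quantile normalization, and the neighbour correlation against chromosomes 8, 11, 12 and 14 turned from −0.00725 to 0.00317 on the deposited scale. The cause was not tested. Agreement rose with running medians (untreated duplicates 0.753, α-amanitin duplicates 0.723, untreated with α-amanitin 0.684, untreated with DRB 0.768), with running means of log2 intensity (0.773, 0.758, 0.731 and 0.770) and with single probes (0.726 for the untreated duplicates, 0.667 for the α-amanitin duplicates and 0.725 for untreated with DRB). With windows of 15 probes the α-amanitin duplicates had 0.634. Without 1 untreated sample, agreement with DRB was 0.580 to 0.675. With 1 shuffle in place of 100, 26 windows passed the trans threshold in both untreated samples.

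Taking the replicate letter, which is also the dye, as a block gave 0 adjusted calls in either comparison, with 99 windows at an unadjusted p under 0.05 for α-amanitin in place of 128 and 175 for DRB in place of 217. Same-letter samples deviated in opposite directions, and the crossed pairing, added after this was seen, gave 0 adjusted calls and 241 windows at an unadjusted p under 0.05. Leaving out single samples moved the unadjusted count for α-amanitin to 233 without untreated A, 141 without untreated B, 258 without α-amanitin A and 262 without α-amanitin B, all with 0 adjusted calls. Alternatives to the mean of quantile normalized intensity gave 275 windows (mean of log2 intensities) and 313 (window median) for α-amanitin, and 192 and 131 for DRB.

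Precision is limited by 2 untreated samples, 2 α-amanitin samples and 1 DRB sample. The smallest exact permutation p over these samples is 0.0625. Window values rest on few bright probes, and probes at the scanner's upper limit, 1 to 81 per sample on chromosomes 10 and 15, give only a lower bound.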
